A study of Mus musculus with 20 samples.

Results

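Muscle-secreted factors are proteins that skeletal muscle makes and releases. The genes described here are 9 such factors, chosen by name with earlier results of these data known: Mstn, Igf1, Fndc5, Metrnl, Il15, Vegfb, Apln, Fgf21 and Gdf15. They were kept where the deposited table held 10 or more counts in 5 or more of its 20 columns, which left 7 of the 9 among the 53311 rows of the table. Fgf21 and Gdf15 did not reach that count in any column. All 7 were among the 13560 genes tested.

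RNA was measured in mouse gastrocnemius, a calf muscle of mostly fast fibres, in 4 groups of 5 samples. All animals carried the genotype label Cre+:iMSBmal1 fl/fl, that is a Cre recombinase and Bmal1 alleles flanked by loxP sites, and the labels name neither the promoter that drives Cre nor the agent that induces it. Vehicle-treated animals were sampled at rest or after exercise, and so were animals labelled iMSBmal1KO, the Bmal1 knockout of muscle. All samples carry the label of zeitgeber time 13, the hours after lights on, and the exercised ones were taken 1 h after 30 min on a treadmill. The labels give no age or sex, and they do not say whether each sample is a separate animal. The p-values therefore measure the spread between these samples.

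Contracting muscle signals to itself and to other organs through secreted factors. Myostatin, encoded by Mstn, restrains muscle growth through activin receptors and SMAD proteins, and insulin-like growth factor 1, encoded by Igf1, promotes growth and repair. Fndc5 encodes the membrane precursor of irisin, Metrnl meteorin-like, Il15 the cytokine interleukin 15, Vegfb a vascular growth factor and Apln the peptide apelin, while Fgf21 and Gdf15 encode hormones that cells release under mitochondrial and endoplasmic reticulum stress.

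Library totals ran from 8045154 to 11269812 counts, and levels are given as CPM, counts scaled to 1e6 per library, after scaling by the trimmed mean of M-values. The targeted gene Arntl, which encodes BMAL1, was not lower under the knockout label. At rest it averaged 12.3 ± 2.39 CPM in vehicle and 14.5 ± 1.94 CPM in iMSBmal1KO-labelled muscle, and after exercise 14.3 ± 5.71 and 16.4 ± 4.15 CPM (SD, n = 5 each; edgeR adjusted p 0.725 and 0.689). The labels do not say which exon is flanked by loxP sites, and the counts cover the whole gene. These values therefore give no sign of the deletion, and loss of that exon itself was not tested. The groups are named by their label, iMSBmal1KO, throughout. Each of the 6 skeletal muscle markers was abundant in every library. Libraries differed widely in slow-fibre genes within every group: the summed level of Myh7, Tnnt1, Tnni1, Tnnc1, Myl2, Myl3 and Atp2a2 ran from 75.8 to 2422 CPM in vehicle at rest, 35.5 to 2344 CPM in vehicle after exercise, 211 to 3539 CPM in iMSBmal1KO-labelled muscle at rest and 48.3 to 2377 CPM in iMSBmal1KO-labelled muscle after exercise. Myh7, the slow myosin heavy chain, ran from 0 to 10753 counts, and the 7 fast-fibre markers summed to between 92324 and 173370 CPM.

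None of the 7 secreted factors passed the test in any comparison, at an adjusted p under 0.05 with edgeR's quasi-likelihood test and Benjamini-Hochberg adjustment over all 13560 genes. Igf1 came nearest. After exercise it was at 19.7 ± 6.71 CPM in vehicle and 8.82 ± 2.50 CPM in iMSBmal1KO-labelled muscle, with an adjusted p of 0.0540. By contrast, 5 of the 7 followed the slow-fibre genes from library to library whatever the group: Fndc5, Vegfb, Il15 and Metrnl were higher, and Mstn lower, in libraries with more slow-fibre RNA. That test was chosen after seeing the data, and 23.1% of all genes tested passed it.

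The stretch before the transcription start is shown for 3 genes that varied with the slow-fibre genes, Fndc5 and Vegfb upward and Mstn downward, and for Fgf21, the member whose window held both an E-box and an ATF4 element. The sequences are the 250 bases upstream of the start in RefSeq on the build GRCm38.p6, 5′ to 3′ on the strand of the gene, and capitals mark the exact matches. The motifs searched on both strands included the E-box CACGTG, which BMAL1 and CLOCK bind, and the D-box in the forms TTATGTAA and TTACGTAA. The others were AGGTCA, the core of the REV-ERB and ROR element without its flanking bases, the cAMP element TGACGTCA and the ATF4 element TGATGCAA.
Fndc5 (chr4:129136749-129136998, plus strand): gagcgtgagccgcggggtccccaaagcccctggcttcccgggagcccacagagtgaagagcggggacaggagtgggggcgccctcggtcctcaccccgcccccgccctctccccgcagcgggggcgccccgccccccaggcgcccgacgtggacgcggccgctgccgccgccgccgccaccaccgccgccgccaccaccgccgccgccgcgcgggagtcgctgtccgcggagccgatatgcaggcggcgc
Vegfb (chr19:6987652-6987901, minus strand): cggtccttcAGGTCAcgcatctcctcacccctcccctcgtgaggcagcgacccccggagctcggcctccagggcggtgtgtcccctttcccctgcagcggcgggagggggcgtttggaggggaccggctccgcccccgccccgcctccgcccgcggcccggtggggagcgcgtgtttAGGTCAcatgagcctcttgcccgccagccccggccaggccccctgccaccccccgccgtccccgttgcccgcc
Mstn (chr1:53061390-53061639, plus strand): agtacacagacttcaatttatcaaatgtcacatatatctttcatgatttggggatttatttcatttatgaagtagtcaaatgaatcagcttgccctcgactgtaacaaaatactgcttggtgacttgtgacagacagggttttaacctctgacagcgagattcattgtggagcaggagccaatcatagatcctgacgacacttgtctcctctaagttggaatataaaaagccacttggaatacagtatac
Fgf21 (chr7:45615491-45615740, minus strand): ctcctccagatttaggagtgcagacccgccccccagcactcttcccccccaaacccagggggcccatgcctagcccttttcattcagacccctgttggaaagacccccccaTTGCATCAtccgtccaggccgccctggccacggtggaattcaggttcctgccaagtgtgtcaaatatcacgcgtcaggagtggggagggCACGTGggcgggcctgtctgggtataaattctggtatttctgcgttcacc

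RefSeq gave a window for 8 of the 9 members, and Gdf15 had 2 windows, one for each of its starts. The Vegfb window held AGGTCA at 241 and at 73 bases before the start, and the Fgf21 window held CACGTG at 50 bases and the ATF4 element, as TTGCATCA on this strand, at 139 bases. The Gdf15 windows held CACGTG at 83 bases before one start and AGGTCA at 55 bases before the other, and the Igf1 window held AGGTCA at 161 bases. None of the 6 motifs was matched in the windows of Mstn, Fndc5, Metrnl and Apln. Of all 32851 windows of the same length, 6.02% held the E-box, 14% AGGTCA and 0.791% the ATF4 element, while 0.819% and 0.113% held the D-box forms and 1.55% the cAMP element. Guanine and cytosine made up 80.8% of the Fndc5 window, 76.4% of the Vegfb window and 38.4% of the Mstn window, beside a median of 52.4% over all windows. Several windows reach into exons of GENCODE M21. All 250 bases of the Igf1 window lie in Igf1 exons, as do 196 bases of the Gdf15 window with CACGTG in Gdf15 exons, so that these matches precede a RefSeq start but not every annotated start. In the Metrnl window 16 bases lie in Metrnl exons, and in the Fndc5 window 44 bases lie in an exon of Gm15906. A match or its absence is a description of these letters.

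**Figure D1:**
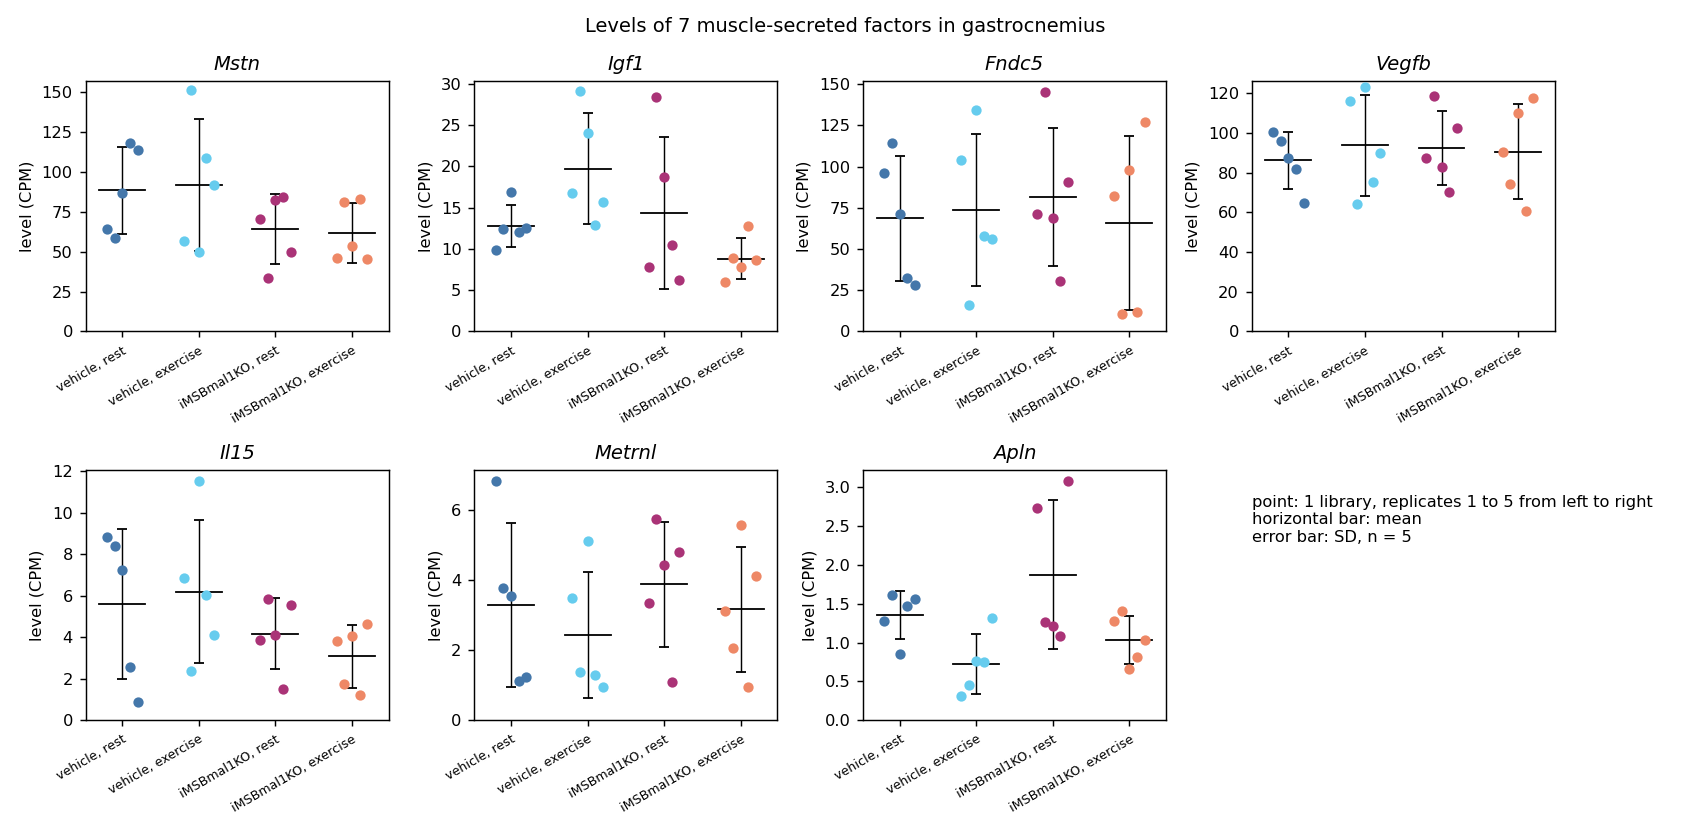
Level of each secreted factor in every library, in CPM on a linear axis from 0, by group (point, 1 library, replicates 1 to 5 from left to right within a group; horizontal bar, mean; error bar, SD, n = 5). The groups overlap in every panel except Igf1 after exercise, where they nearly touch. The lowest vehicle library there is at 12.835 CPM and the highest iMSBmal1KO-labelled one at 12.8211 CPM. The share of all genes without such overlap is not given here. Fndc5, Il15 and Metrnl spread widely inside each group.

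Mstn, on chromosome 1 (chr1:53061640-53068079, plus strand, GENCODE M21 on GRCm38, which may differ from the authors' build), encodes the growth inhibitor myostatin. In vehicle at rest its level in replicates 1 to 5 was 64.5, 58.7, 86.6, 118 and 114 CPM, and in vehicle after exercise 56.7, 151, 50.0, 109 and 92.0 CPM. In iMSBmal1KO-labelled muscle it was 70.5, 33.8, 82.4, 84.0 and 50.0 CPM at rest and 46.1, 81.2, 53.8, 83.0 and 45.4 CPM after exercise. All 4 groups overlapped, and the highest library of all, at 151 CPM, was replicate 2 of vehicle after exercise. The mean was lower in iMSBmal1KO-labelled muscle, at 64.1 ± 21.7 against 88.4 ± 27.4 CPM at rest and 61.9 ± 18.7 against 91.7 ± 41.2 CPM after exercise (SD, n = 5 each). These differences did not pass the test: the log2 fold changes were -0.46 (SE 0.32, edgeR adjusted p 0.577) and -0.57 (SE 0.33, adjusted p 0.366).

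Igf1 (chr10:87858265-87937042, plus strand) encodes insulin-like growth factor 1, which muscle makes for its own growth and repair beside the supply from liver. Its level in vehicle at rest was 9.86, 12.4, 16.9, 12.1 and 12.5 CPM, and in vehicle after exercise 16.8, 29.1, 24.1, 12.8 and 15.6 CPM. In iMSBmal1KO-labelled muscle it was 7.83, 28.4, 18.7, 10.5 and 6.18 CPM at rest and 6.02, 8.85, 7.77, 12.8 and 8.66 CPM after exercise. The 5 libraries of vehicle after exercise all stood above those of iMSBmal1KO-labelled muscle after exercise, with the nearest values at 12.835 and 12.8211 CPM, and replicates 2 and 3 of iMSBmal1KO-labelled muscle at rest stood apart from the other 3 of that group. The log2 fold change between iMSBmal1KO-labelled and vehicle muscle after exercise was -1.16 (SE 0.35, 95% interval -1.89 to -0.43), with an unadjusted p of 0.00367 and an edgeR adjusted p of 0.0540, just outside the threshold. At rest it was 0.17 (SE 0.34, adjusted p 0.888).

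The exercise response of Igf1 had opposite fitted signs in the 2 backgrounds, with log2 fold changes of 0.63 (SE 0.34) in vehicle and -0.70 (SE 0.35) in iMSBmal1KO-labelled muscle, neither of which passed the test (edgeR adjusted p 0.640 and 1.00). The difference between both responses was -1.33 (SE 0.49, unadjusted p 0.0141, adjusted p 0.780). The call on Igf1 after exercise depended on the method. It passed in 7 of 22 alternatives, with adjusted p-values of 0.00688 by DESeq2, 0.0393 by limma-voom and 0.0178 when only these 2 groups were fitted by edgeR, and the range over all alternatives was 0.00688 to 0.136. Without replicate 4 of vehicle after exercise, the lowest of its group, the adjusted p was 0.0486, and without any other single library of both groups it stayed above the threshold. Of 5 blood markers, 1 was called between iMSBmal1KO-labelled and vehicle muscle after exercise, where 6.42% of all genes were. It was Hba-a2, a haemoglobin gene (log2 fold change -1.90, edgeR adjusted p 0.0198). The summed level of the 5 blood markers overlapped, at 57.7 to 366 CPM in vehicle and 48.1 to 139 CPM in iMSBmal1KO-labelled muscle. Over the 20 libraries, Igf1 had an r of -0.00705 and a rho of 0.0481 with the mean log2 CPM of these markers (permutation p 0.977 and 0.841). For deviations from the group means r was -0.341. The part of blood in the Igf1 difference was not tested.

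Fndc5 (chr4:129136999-129144593, plus strand) encodes the precursor that is cleaved to irisin. Its level was 96.1, 114, 71.5, 32.6 and 28.4 CPM in vehicle at rest and 104, 16.3, 134, 58.1 and 56.1 CPM in vehicle after exercise. In iMSBmal1KO-labelled muscle it was 71.4, 145, 68.6, 30.6 and 90.7 CPM at rest and 81.9, 10.6, 97.9, 11.5 and 127 CPM after exercise. The spread inside the groups was far larger than any difference between them, and within iMSBmal1KO-labelled muscle after exercise the highest library exceeded the lowest 12.0-fold. The SD of log2 CPM within groups, 1.22, lay at percentile 99.1 of all genes tested, whose median was 0.27. The log2 fold change in iMSBmal1KO-labelled muscle at rest was 0.24 with a 95% interval of -1.20 to 1.69, so that neither a doubling nor a halving was outside what these libraries allow.

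Metrnl (chr11:121701544-121716306, plus strand) encodes meteorin-like, a circulating factor that acts on immune and fat cells. It stood at 6.84, 3.76, 3.56, 1.11 and 1.22 CPM in vehicle at rest and 3.49, 1.37, 5.12, 1.29 and 0.937 CPM in vehicle after exercise. In iMSBmal1KO-labelled muscle the values were 3.36, 5.75, 4.43, 1.08 and 4.79 CPM at rest and 3.12, 2.05, 5.58, 0.945 and 4.11 CPM after exercise. All 4 groups overlapped, and its counts, 7 to 59 per library, make single values imprecise. None of its 4 log2 fold changes passed the test, and they ran from -0.44 for exercise in vehicle to 0.40 for iMSBmal1KO-labelled muscle after exercise.

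Il15 (chr8:82331632-82403222, minus strand) encodes interleukin 15, a cytokine that sustains natural killer and memory T cells. It stood at 8.82, 8.42, 7.23, 2.58 and 0.888 CPM in vehicle at rest and 6.87, 2.39, 11.6, 6.04 and 4.12 CPM in vehicle after exercise. In iMSBmal1KO-labelled muscle it was 3.85, 5.86, 4.10, 1.51 and 5.54 CPM at rest and 3.82, 1.73, 4.05, 1.21 and 4.63 CPM after exercise. The lowest library of all, at 0.888 CPM, was replicate 5 of vehicle at rest, and the groups overlapped. The mean after exercise was 3.09 ± 1.52 CPM in iMSBmal1KO-labelled muscle and 6.20 ± 3.46 CPM in vehicle (SD, n = 5 each). The log2 fold change of -0.97 (SE 0.53, edgeR adjusted p 0.333) did not pass the test, nor did that at rest (-0.43, SE 0.52, adjusted p 0.789).

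Vegfb (chr19:6982473-6987651, minus strand) encodes vascular endothelial growth factor B, a ligand of FLT1 that muscle co-expresses with mitochondrial genes. Its level was 101, 96.1, 87.7, 81.9 and 64.5 CPM in vehicle at rest and 116, 64.4, 123, 75.2 and 90.1 CPM in vehicle after exercise. In iMSBmal1KO-labelled muscle it was 87.5, 119, 83.0, 70.1 and 103 CPM at rest and 90.4, 74.3, 110.0, 60.7 and 118 CPM after exercise. The 4 means lay within 86.2 and 93.8 CPM, and the groups overlapped almost fully. The difference between iMSBmal1KO-labelled and vehicle muscle at rest was 0.10 on the log2 scale, with a 95% interval of -0.31 to 0.51.

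Apln (chrX:48025146-48034853, minus strand) encodes apelin, a peptide that acts on vessels and muscle through the receptor APLNR. It was rare, at 3 to 29 counts per library. Its level was 1.28, 1.61, 0.858, 1.48 and 1.55 CPM in vehicle at rest and 0.308, 0.455, 0.763, 0.755 and 1.31 CPM in vehicle after exercise. In iMSBmal1KO-labelled muscle it was 2.74, 1.26, 1.22, 1.08 and 3.09 CPM at rest and 1.27, 1.40, 0.656, 0.810 and 1.03 CPM after exercise. The mean after exercise was lower in both backgrounds, with log2 fold changes of -0.89 (SE 0.39, unadjusted p 0.0322) in vehicle and -0.84 (SE 0.37, unadjusted p 0.0307) in iMSBmal1KO-labelled muscle. Neither passed the test, with edgeR adjusted p-values of 0.470 and 1.00, and in both backgrounds the exercised and resting libraries overlapped.

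Fgf21 and Gdf15 were near the limit of detection. Fgf21 held 2 counts in the whole table, both in replicate 1 of vehicle after exercise (0.205 CPM). Gdf15 held 23 counts, of which 9 were in replicate 3 of vehicle after exercise (0.981 CPM), 4 in replicate 3 of iMSBmal1KO-labelled muscle at rest and 3 in replicate 4 of vehicle after exercise, with 0 or 1 in each other library. At this depth a count of 0 allows up to 3 counts, or 0.257 to 0.405 CPM by library, and differences below that were not detectable.

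To set genes beside one another, levels were divided by exon length in GENCODE M21. The annotation behind the counts is not known, so the order between genes depends on these lengths. Per kilobase of exon, the group means of Vegfb were highest, at 53.7 to 58.4 CPM per kb. Mstn followed at 22.9 to 33.9 CPM per kb and Fndc5 at 23.8 to 29.4 CPM per kb. The others were lower by an order of magnitude, with Il15 at 1.37 to 2.74 CPM per kb, Metrnl at 1.54 to 2.45 CPM per kb, Igf1 at 0.891 to 1.99 CPM per kb and Apln at 0.228 to 0.596 CPM per kb. Ordered by mean within each gene, every pair of neighbouring groups overlapped in range for all 7 factors. By mean CPM, Mstn was ordered vehicle after exercise, vehicle at rest, iMSBmal1KO-labelled at rest and iMSBmal1KO-labelled after exercise, and Igf1 had the same order except that iMSBmal1KO-labelled muscle at rest stood above vehicle at rest. By mean log2 CPM, 2 of these steps were reversed and small. The difference was -0.00743 for Mstn between vehicle after exercise and at rest. For Igf1 it was -0.0389 between iMSBmal1KO-labelled muscle and vehicle at rest.

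**Figure D2:**
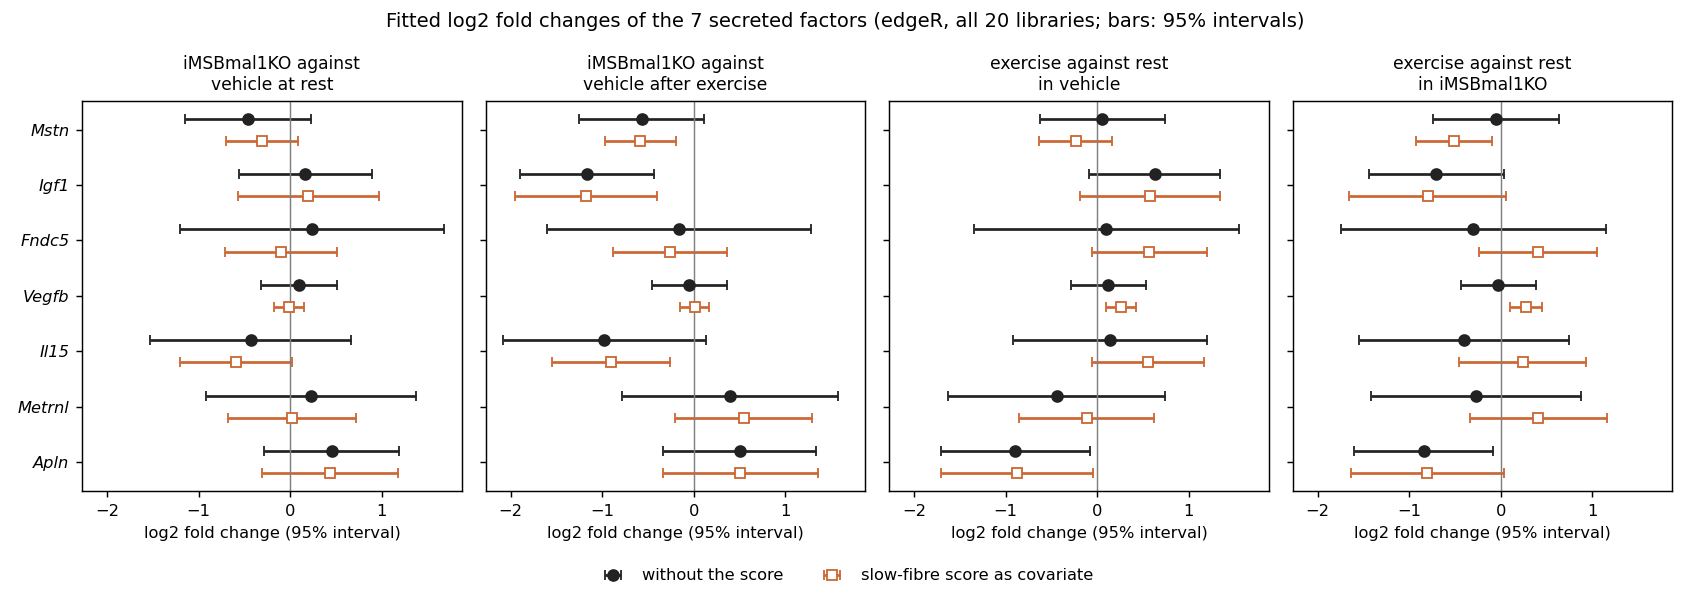
Fitted log2 fold change (horizontal axis) of the 7 secreted factors in the 4 two-group comparisons, with 95% intervals, from edgeR on all 20 libraries; filled circles are the fit with group means only and open squares the fit that also has the slow-fibre score as a covariate. The intervals of Fndc5, Il15, Metrnl, Mstn and Vegfb shorten with the covariate, and those of Igf1 and Apln do not.

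The counts of calls among the factors were read against those of all genes. In iMSBmal1KO-labelled against vehicle muscle at rest, 0 of 7 passed where 3.86% of all genes tested did, and after exercise 0 of 7 where 6.42% did. For exercise, 0 of 7 passed in vehicle, where 0.804% of all genes did, and 0 of 7 in iMSBmal1KO-labelled muscle, where 0% did. No factor and 0% of all genes passed for the difference between both exercise responses. With 7 genes, counts of 0 are close to such shares. At an unadjusted p under 0.05, edgeR gave 0 factors at rest and 1 in each of the other 4 comparisons, which were Igf1 between iMSBmal1KO-labelled and vehicle muscle after exercise and for the difference between responses, and Apln for exercise in either background. DESeq2 and limma-voom each called 1 factor, Igf1 after exercise, where they called 8.39% and 6.47% of all genes, and none in the other comparisons. With only these 2 groups in the edgeR fit, which also called Igf1, the share was 4.39%. Over all genes, edgeR called 0 for exercise in iMSBmal1KO-labelled muscle and 0 for the difference between responses (639 and 791 at an unadjusted p under 0.05), DESeq2 0 and 3, and limma-voom 0 and 0. The median log2 fold change of the 7 factors was 0.17 at rest and -0.16 after exercise between iMSBmal1KO-labelled and vehicle muscle, beside 0.01 and 0.01 over all genes tested.

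The relation with fibre type was examined next, in a test chosen after seeing the data. A slow-fibre score, the mean log2 CPM of the 7 slow-fibre markers, was added to the group means, and its coefficient was tested for every gene. Per unit of the score, that is per doubling of the slow-fibre genes, Fndc5 rose by 0.38 on the log2 scale (SE 0.04, edgeR adjusted p 1.43e-05) and Vegfb by 0.11 (SE 0.01, adjusted p 1.01e-07). Il15 rose by 0.27 (SE 0.04, adjusted p 1.21e-04) and Metrnl by 0.28 (SE 0.05, adjusted p 3.24e-04). Mstn fell by 0.15 (SE 0.02, adjusted p 2.89e-04). Igf1, at -0.03 (SE 0.05, 95% interval -0.13 to 0.07, adjusted p 0.726), and Apln, at 0.01 (SE 0.06, 95% interval -0.10 to 0.13, adjusted p 0.903), did not pass. The 5 of 7 called compare with 23.1% of all genes tested, and the same number was called without each of the 20 libraries in turn. In bulk muscle, fewer cells of a type and less RNA per cell cannot be told apart.

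**Figure D3:**
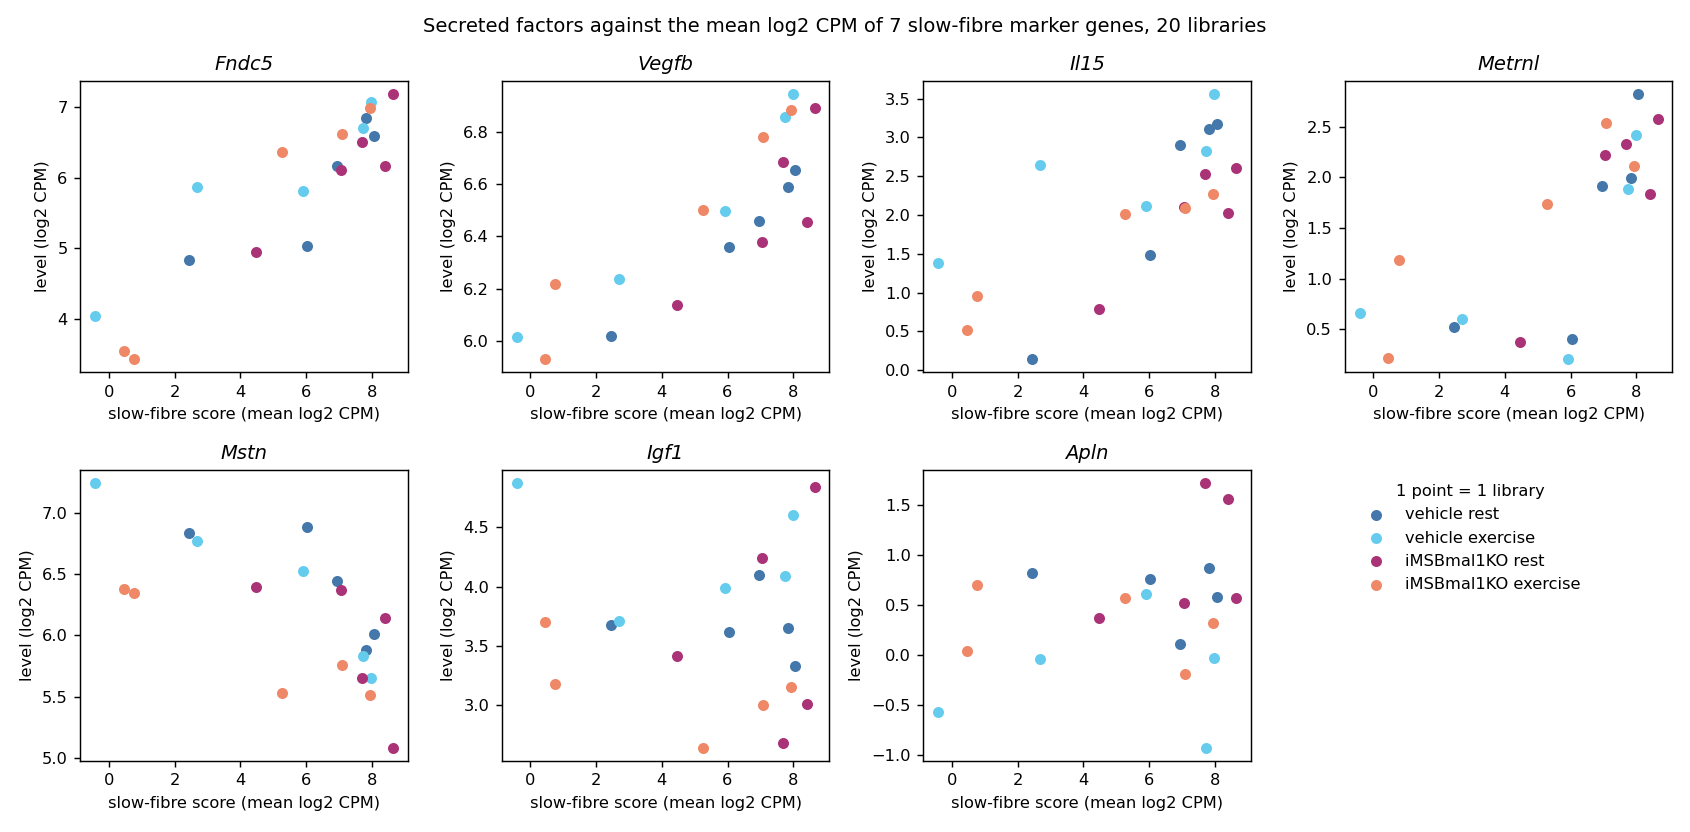
Level of each secreted factor (vertical axis, log2 CPM) against the slow-fibre score (horizontal axis, mean log2 CPM of 7 marker genes) in 20 libraries, coloured by group. Fndc5, Vegfb, Il15 and Metrnl rise and Mstn falls along the score in all 4 groups, while Igf1 and Apln show no such slope.

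The same relation was seen as a correlation over the 20 libraries. For Fndc5, Pearson's r with the score was 0.906 and Spearman's rho 0.865 (permutation p 1e-05 for each, the smallest that the permutations can give; adjusted over 77 pairs of factor and marker list 3.85e-04 and 7.70e-04), and r was 0.857 without the 2 libraries farthest from the median score. Among the 10 vehicle libraries r was 0.874 and among the 10 iMSBmal1KO-labelled libraries 0.951. For Vegfb r was 0.855 and rho 0.833 (permutation p 1e-05 and 2e-05, adjusted 3.85e-04 and 7.70e-04; r 0.791 without the farthest 2), and for Mstn r was -0.682 and rho -0.686 (permutation p 9.2e-04 and 0.00113, adjusted 0.0101 and 0.0128; r -0.614 without the farthest 2). The low libraries were shared among the groups: the 6 lowest scores belonged to replicate 5 of vehicle at rest, replicates 2 and 4 of vehicle after exercise, replicate 4 of iMSBmal1KO-labelled muscle at rest and replicates 2 and 4 of iMSBmal1KO-labelled muscle after exercise. Endothelial markers, at 84.3 to 164 CPM in sum, moved with Fndc5 and Vegfb, with r of 0.767 and 0.718 (rho 0.716 and 0.720, permutation p 1.7e-04 and 1.2e-04, adjusted 0.00327 and 0.00308). Without the farthest 2 libraries r was 0.600 for Fndc5 and 0.564 for Vegfb. Metrnl also followed the endothelial markers (r 0.633 and rho 0.648, permutation p 0.00122 and 0.00238, adjusted 0.0117 and 0.0229; r 0.570 without the farthest 2). Il15 and Mstn, with r of 0.556 and -0.562, did not pass for these markers (permutation p 0.0104 and 0.00918, adjusted 0.0615 and 0.0589). Mstn was lower where fibroblast markers, at 76.5 to 196 CPM in sum, were higher (r -0.617 and rho -0.624, permutation p 0.00351 and 0.00407, adjusted 0.0300 and 0.0313; r -0.682 without the farthest 2). Among the vehicle libraries that r was -0.788 and among the iMSBmal1KO-labelled ones -0.0651. Il15 followed blood markers, at 48.1 to 366 CPM in sum, by rank only (rho 0.641, permutation p 0.00317, adjusted 0.0271; r 0.570, permutation p 0.00867, adjusted 0.0589; r 0.685 without the farthest 2). The part of these markers in the slow-fibre relation was not tested.

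With the slow-fibre score in the model the standard errors of the factors that followed it shrank, from 0.68 to 0.29 for Fndc5 and from 0.20 to 0.08 for Vegfb in the comparison at rest. Still 0 of 7 factors passed in any of the 4 two-group comparisons, where 6.22% of all genes passed between iMSBmal1KO-labelled and vehicle muscle at rest and 10.4% after exercise, 1.83% for exercise in vehicle and 0.0442% for exercise in iMSBmal1KO-labelled muscle. After exercise 3 factors had fitted values lower in iMSBmal1KO-labelled muscle that came near the threshold. These were Igf1 with -1.18 (SE 0.36, edgeR adjusted p 0.0512), Mstn with -0.58 (SE 0.18, adjusted p 0.0535) and Il15 with -0.91 (SE 0.31, adjusted p 0.0655). Vegfb had fitted values above rest after exercise in both backgrounds, 0.26 (SE 0.08, adjusted p 0.0983) in vehicle and 0.28 (SE 0.08, adjusted p 0.257) in iMSBmal1KO-labelled muscle, and its difference between iMSBmal1KO-labelled and vehicle muscle at rest was -0.01, with a 95% interval of -0.17 to 0.16. The fitted exercise response of Fndc5 in iMSBmal1KO-labelled muscle changed sign, from -0.30 to 0.41 (SE 0.30, adjusted p 0.726). Those of Metrnl, from -0.27 to 0.41, of Il15, from -0.41 to 0.24, and of Vegfb, from -0.03 to 0.28, changed sign too.

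The factors that followed the score also varied together: over the 20 libraries r was 0.884 between Fndc5 and Vegfb (rho 0.949), 0.828 between Fndc5 and Il15 (rho 0.780) and -0.816 between Mstn and Vegfb (rho -0.826), given as a description since these genes share libraries and the slow-fibre gradient. No factor was called in a group comparison, so the genes nearest in pattern were chosen after the values were seen, by Pearson's r of log2 CPM over 20 libraries. Nearest to Fndc5 were Homer2 (r 0.964), which encodes a scaffold protein, and Acaa2 (r 0.963), which encodes a thiolase of mitochondrial fatty acid oxidation. Nearest to Vegfb were Dvl2 (r 0.953), a mediator of Wnt signalling, Dlat (r 0.945), a subunit of the pyruvate dehydrogenase complex, and Acads (r 0.944), a dehydrogenase of short-chain fatty acids. Nearest to Mstn were Rab2a (r 0.955), a regulator of vesicle traffic, Amd1 (r 0.953), an enzyme of polyamine synthesis, and Gpd1 (r 0.937), the cytosolic glycerol-3-phosphate dehydrogenase. For Igf1 the nearest were Mrpl13 (r 0.787) and Clic5 (r 0.786), and for Apln Ankzf1 (r 0.774) and Grap (r 0.770). Spearman's rho was 0.752, 0.795, 0.602 and 0.747 for these pairs. For deviations from the group means r was 0.636, 0.799, 0.693 and 0.513. All these nearest genes are the highest of 11722 candidates, or 11723 for Apln, and their r was not tested.

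The receptors, binding proteins and signal transducers of these factors, genes of the integrated stress response and p53 targets, and other secreted factors made up lists of 107 genes, of which 84 were tested. The lists were chosen with earlier results of these data known, so their counts beside the shares of all genes are a description. At rest 5 of the 84 were called between iMSBmal1KO-labelled and vehicle muscle, 3 higher and 2 lower, and after exercise 7 were called, 5 higher and 2 lower. For exercise 4 were called in vehicle, all higher, and 0 in iMSBmal1KO-labelled muscle (7 at an unadjusted p under 0.05 by edgeR). The shares called over all genes were 3.86% at rest and 6.42% after exercise between iMSBmal1KO-labelled and vehicle muscle. For exercise they were 0.804% in vehicle and 0% in iMSBmal1KO-labelled muscle. Between iMSBmal1KO-labelled and vehicle muscle the medians of the 84 genes, 0.02 at rest and 0.04 after exercise on the log2 scale, were close to those of all genes.

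On the myostatin side, Acvr1b, the type I activin receptor ALK4 through which myostatin signals, fell in iMSBmal1KO-labelled muscle at rest. It ran from 75.2 to 118 CPM in vehicle and 27.1 to 60.6 CPM in iMSBmal1KO-labelled muscle, without overlap, with means of 93.7 ± 18.6 and 45.0 ± 12.1 CPM (SD, n = 5 each; log2 fold change -1.06, SE 0.22, edgeR adjusted p 0.00736). After exercise its log2 fold change was -0.57 (SE 0.22, adjusted p 0.143), which did not pass. Smad3, which carries the myostatin and TGF-beta signal to the nucleus, fell after exercise, from 135 ± 29.2 to 79.5 ± 10.4 CPM, with ranges of 105 to 182 and 62.1 to 88.2 CPM that did not overlap (edgeR adjusted p 0.00206, with a log2 fold change of -0.77 and an SE of 0.15). At rest Smad3 was at -0.51 (adjusted p 0.0573).

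Tgfb3, a related ligand that signals through another receptor pair, rose in iMSBmal1KO-labelled muscle in both states. It was at 33.0 ± 4.69 CPM in vehicle and 45.4 ± 2.65 CPM in iMSBmal1KO-labelled muscle at rest (edgeR adjusted p 0.0322, with a log2 fold change of 0.46 and an SE of 0.12), and at 27.9 ± 4.81 and 45.9 ± 7.36 CPM after exercise (0.71, SE 0.12, adjusted p 0.000603). The call at rest was lost without replicate 1, 2, 4 or 5 of vehicle at rest and without replicate 1, 2 or 4 of iMSBmal1KO-labelled muscle at rest, with adjusted p-values of 0.0610 to 0.103, and with scaling by library size only (0.0640), and that after exercise was kept without any library. In all, 2 of 20 tested genes of this list were called in each state, 1 higher and 1 lower, and the antagonists of myostatin such as Fst and Dcn were not among them. Of all genes tested, 3.86% were called at rest and 6.42% after exercise.

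**Figure D4:**
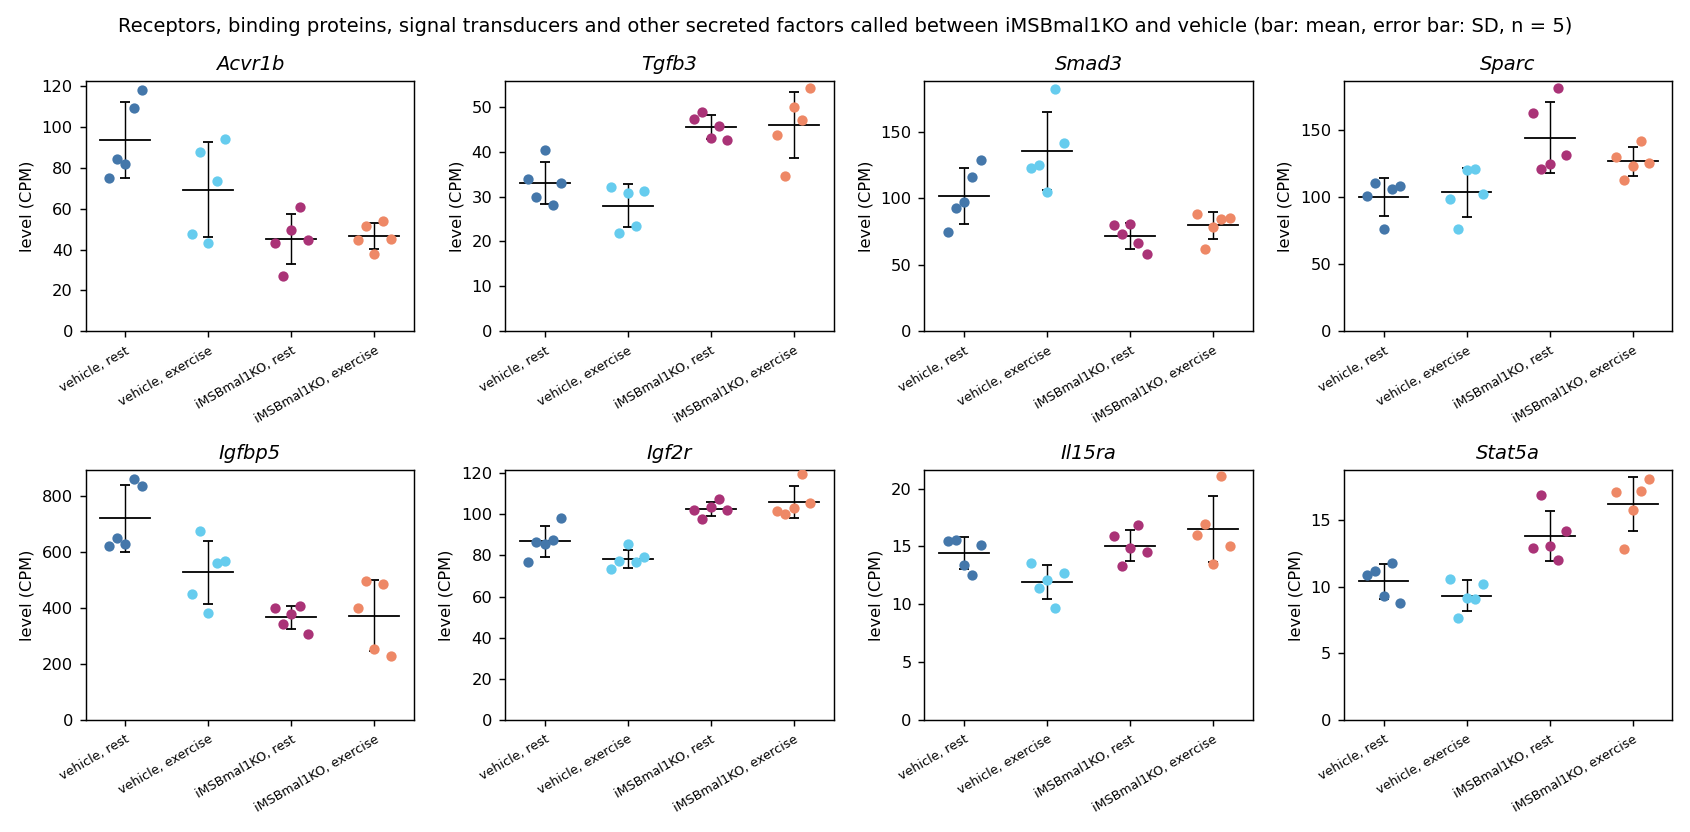
Levels (CPM, linear axis from 0) of 8 receptors, binding proteins, signal transducers and secreted factors that passed the test between iMSBmal1KO-labelled and vehicle muscle (point, 1 library; bar, mean; error bar, SD, n = 5). Acvr1b and Igfbp5 at rest and Smad3 after exercise were lower in iMSBmal1KO-labelled muscle, while Tgfb3 in both states and Igf2r, Stat5a and Il15ra after exercise were higher.

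On the side of IGF1, Igfbp5, an insulin-like growth factor binding protein abundant in muscle, fell at rest in iMSBmal1KO-labelled muscle, from 719 ± 119 to 366 ± 41.5 CPM (SD, n = 5 each; log2 fold change -0.97, SE 0.20, edgeR adjusted p 0.00450). The 5 vehicle libraries ran from 619.9 to 860.5 CPM and the 5 iMSBmal1KO-labelled ones from 306 to 406 CPM, without overlap. After exercise its log2 fold change was -0.50 (SE 0.19, adjusted p 0.143), which did not pass. Igf2r, the receptor that takes up and clears IGF2, rose after exercise from 78.4 ± 4.43 to 106 ± 7.79 CPM, again without overlap (0.43, SE 0.08, adjusted p 0.000716), and at rest was at 0.24 (adjusted p 0.0895). These were 1 of 8 tested genes of the list in each state, beside 3.86% of all genes at rest and 6.42% after exercise. Igf1r, the receptor of IGF1 itself, was not called.

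Among the partners of interleukin 15, 2 of 5 were called after exercise, both higher in iMSBmal1KO-labelled muscle, and 0 at rest (1 at an unadjusted p under 0.05 by edgeR). Over all genes tested, 6.42% were called after exercise and 3.86% at rest. Il15ra, the receptor chain that presents the cytokine, rose from 11.9 ± 1.46 to 16.5 ± 2.86 CPM (edgeR adjusted p 0.0196, with a log2 fold change of 0.46 and an SE of 0.12), with ranges that overlapped, and its call was lost without replicate 4 of vehicle (adjusted p 0.0617) or replicate 4 of iMSBmal1KO-labelled muscle (0.0661), or with only both groups fitted (0.0726). Stat5a, which carries the signal of interleukin 15 and other cytokines, rose from 9.32 ± 1.15 to 16.2 ± 2.04 CPM without overlap (0.79, SE 0.13, adjusted p 0.000251). Il15 itself had a lower fitted value in the same comparison, as given above, which did not pass.

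None of the 8 tested VEGF partners, which include the receptors Flt1 and Kdr, was called by edgeR in any comparison. The same held for the 4 tested partners of irisin and meteorin-like, which include the coactivator Ppargc1a. Over all genes tested, 3.86% were called at rest and 6.42% after exercise between iMSBmal1KO-labelled and vehicle muscle. For exercise the shares were 0.804% in vehicle and 0% in iMSBmal1KO-labelled muscle, and for the difference between both responses 0%. With so few genes, counts of 0 are close to such shares. At an unadjusted p under 0.05 the VEGF partners gave 1 gene at rest and 2 after exercise between iMSBmal1KO-labelled and vehicle muscle, and the irisin and meteorin-like partners 0 and 1. Of the 5 tested partners of FGF21, GDF15 and apelin, Fgfr3, an FGF receptor, rose with exercise in vehicle, from 4.39 ± 1.35 to 9.39 ± 1.88 CPM without overlap between groups (a log2 change of 1.09, SE 0.26, adjusted p 0.0453). That call was lost without replicate 1, 2, 4 or 5 of vehicle at rest and without replicate 2, 3 or 4 of vehicle after exercise (adjusted p 0.0745 to 0.144), and with 6 other settings (0.0527 to 0.110).

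The integrated stress response induces Fgf21 and Gdf15, and its list held regulators such as Atf4 and Ddit3 beside targets such as Chac1 and Hspa5. Between iMSBmal1KO-labelled and vehicle muscle none of its 13 tested genes was called (2 at an unadjusted p under 0.05 in each state by edgeR). For exercise in vehicle 1 of the 13 was called, where 0.804% of all genes were. That gene was Cebpb, a transcription factor also induced by inflammation, which rose from 92.0 ± 9.60 to 161 ± 30.1 CPM without overlap (edgeR adjusted p 0.0219, with a log2 fold change of 0.80 and an SE of 0.17), a call lost without replicate 1, 2 or 5 of vehicle at rest or replicate 2 or 4 of vehicle after exercise (adjusted p 0.0590 to 0.0820), and with no filter on low counts (0.0678). Of 10 tested p53 targets, Cdkn1a, which encodes the cell-cycle inhibitor p21, rose in iMSBmal1KO-labelled muscle from 6.31 ± 1.09 to 92.3 ± 25.7 CPM at rest and from 14.6 ± 1.87 to 121 ± 28.6 CPM after exercise (log2 fold changes 3.87 and 3.05, adjusted p 5.45e-11 and 1.07e-09), and rose with exercise in vehicle (1.21, adjusted p 0.00407).

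Phlda3, another p53 target, fell after exercise in iMSBmal1KO-labelled muscle, from 282 ± 27.1 to 177 ± 40.7 CPM (-0.68, SE 0.18, adjusted p 0.0287), a call lost without replicate 1 or 2 of vehicle or replicate 2 or 4 of iMSBmal1KO-labelled muscle (adjusted p 0.0506 to 0.0844), and with no filter on low counts (0.0830). Btg2 rose with exercise in vehicle, from 11.3 ± 3.97 to 32.1 ± 14.0 CPM (1.50, SE 0.32, adjusted p 0.0336), a call lost without replicate 1, 2, 4 or 5 of vehicle at rest or replicate 3 or 4 of vehicle after exercise (adjusted p 0.0704 to 0.107), and with scaling by library size only, no filter or only both groups (0.0677 to 0.139). Of the 10 tested p53 targets, 1 was called higher at rest, where 3.86% of all genes were called. After exercise 1 was called higher and 1 lower, beside 6.42% of all genes. Gdf15, a p53 target itself, was near the limit of detection in every group. The part of p53 in these values was not tested.

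Of 11 other secreted factors tested, among them Angptl4, Ctsb and Nampt, 1 was called, at rest, where 3.86% of all genes were. Sparc, which encodes a matrix glycoprotein that muscle releases, rose in iMSBmal1KO-labelled muscle at rest, from 100.4 ± 14.1 to 144 ± 26.5 CPM without overlap (edgeR adjusted p 0.0223, with a log2 fold change of 0.52 and an SE of 0.13), a call lost without replicate 3 of vehicle or replicate 1 or 4 of iMSBmal1KO-labelled muscle (adjusted p 0.0633 to 0.0833). Fibroblasts also make Sparc, and the summed level of their markers ran from 98.8 to 150.3 CPM in vehicle and 124 to 196 CPM in iMSBmal1KO-labelled muscle at rest, with 0 of 5 called, and their part in the Sparc rise was not tested. All 16 calls named in these lists held with the slow-fibre score as a covariate. Exons of Cdkn1a, Cebpb, Fgfr3, Stat5a and Tgfb3 overlap those of a gene on the opposite strand in GENCODE M21, and without the strand setting, which is not given in the sources used here, reads of both cannot be told apart there. None of the 9 secreted factors overlaps another gene in its exons.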

How the data were processed

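RNA was sequenced from 20 samples of mouse gastrocnemius in 4 groups of 5, and the authors deposited 1 table of raw counts, with a gene symbol on each line. The submitters' processing notes name STAR 2.7.8a, Partek and DESeq2 and the builds mm10 and GRCm39 without their roles. The counting program, annotation and strand setting are not given in the sources used here. No value was normalized before deposit as far as the table shows, since all were whole numbers with a different total in each sample. Groups were taken from the treatment labels. The description labels of the exercised iMSBmal1KO-labelled samples speak of training, while their titles speak of acute exercise, and they were analysed as acute exercise. No 2 libraries agreed within sampling noise (chi-square per degree of freedom of at least 4.06).

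The function filterByExpr (edgeR 4.0.16 in R 4.3.3, minimum 10 counts) left 13560 genes of 53311 rows, holding 99.83% of all counts. There were 106 rows with a repeated symbol. A quasi-likelihood model with robust dispersions and scaling by the trimmed mean of M-values was fitted to all 20 samples with 1 mean per group. There were 5 contrasts, adjusted by Benjamini-Hochberg over all genes tested at a threshold of 0.05. Levels are CPM with mean ± SD, and log2 CPM used a prior count of 2. Standard errors and 95% intervals come from the F statistics. Correlations used 1e+05 permutations. The slow-fibre coefficient was added after seeing the data. Scripts were tested on simulated counts. Libraries of 8045154 to 11269812 counts leave genes under about 10 counts imprecise, and floors describe counting error alone, because reads that carry no molecular identifier can repeat a molecule.

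The members and gene lists were chosen with earlier results of these data known. The genes named were all 9 members, the genes of the partner, stress and other secreted lists with an adjusted p under 0.05, and Arntl. Promoter sequences came from RefSeq on GRCm38.p6 and gene positions and exon lengths from GENCODE M21. Alternatives were other scalings, filters and dispersion settings, DESeq2 1.42.0, limma-voom (limma 3.58.1), only both groups of a contrast, a block for the replicate number, leaving out each replicate or the mitochondrial genes and the slow-fibre score as a covariate.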

Additional observations from a re-analysis of the deposited data

How the results depend on the processing

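The comparison that depended on the method was Igf1 after exercise. The number of secreted factors called there was 0 with the settings of the report, which called 6.42% of all genes. It was 1 with non-robust dispersions, a stricter filter of 30 counts, the replicate block, only both groups of the contrast, DESeq2 and limma-voom. Over libraries left out it was 0 to 1. Of all genes, DESeq2 called 8.39%, limma-voom 6.47% and the fit of only both groups 4.39%. The shares under the other settings are not given here. The adjusted p of Igf1 was 0.0342 with non-robust dispersions, 0.0420 with the stricter filter and 0.0279 with the replicate block, and the cause was not tested. Same-numbered samples correlated at over 0.1 in 15 of 30 pairs, in 4 of 5 for iMSBmal1KO-labelled against vehicle muscle after exercise (lowest 0.0257, median 0.338), and 3 of 20 samples correlated best with their own number, so the numbers were not taken to pair the samples. No factor was called in any other comparison under any setting. The values whose sign reversed were called under neither setting. With the slow-fibre score as a covariate the log2 fold change at rest was -0.0991 for Fndc5 and -0.00787 for Vegfb, after exercise 0.00938 for Vegfb, for exercise in vehicle -0.24 for Mstn, and for exercise in iMSBmal1KO-labelled muscle 0.41 for Fndc5 and Metrnl, 0.24 for Il15 and 0.28 for Vegfb. With limma-voom it was -0.0409 for Igf1 at rest and -0.00765 for Mstn with exercise in vehicle. With single libraries left out, the fitted values ran for iMSBmal1KO-labelled against vehicle muscle at rest from -0.0826 to 0.50 for Fndc5, -0.25 to 0.36 for Igf1 and -0.0179 to 0.18 for Vegfb. They ran for the same comparison after exercise from -0.55 to 0.17 for Fndc5 and -0.17 to 0.0663 for Vegfb. They ran for exercise in vehicle from -0.23 to 0.36 for Fndc5, -0.21 to 0.35 for Il15 and -0.20 to 0.21 for Mstn. They ran for exercise in iMSBmal1KO-labelled muscle from -0.69 to 0.0166 for Fndc5, -0.22 to 0.0632 for Mstn and -0.14 to 0.0875 for Vegfb. They ran for the slow-fibre coefficient from -0.0111 to 0.0380 for Apln and -0.0481 to 0.0128 for Igf1. Of the calls among partner and stress genes, that on Cebpb was also lost with the replicate block (0.0552). A library left out also leaves fewer samples. Metrnl and Apln had at most 59 and 29 counts per library, and the part of counting error in their spread was not tested. The stricter filter left Apln untested.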
